A study of Mus musculus with 35 samples.

Results

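The genes described here encode the machinery that copies chromosomal DNA, from the complex that marks origins to the ligase that seals the new strands. They were taken as a list of 41 gene symbols, and all 41 were found among the 49671 genes of the count table. All 41 also passed the filter on low counts that left 17166 genes for testing, and no member had fewer than 105 reads in any library. RNA was sequenced from mouse bone marrow cells depleted of lineage-marked cells (lineage-negative hematopoietic stem and progenitor cells), which were transduced with a virus and grown for 1 week in methylcellulose with myeloid and erythroid growth factors and 10 ng/mL GM-CSF. Each of 7 groups had 5 libraries. Empty cells carried the vector alone. G-NHX9 cells carried the leukemia-associated fusion of the FG-repeat region of the nucleoporin NUP98 with the DNA-binding homeodomain of HOXA9, tagged with green fluorescent protein. In G-NHX9-8FA, 8 phenylalanines of the NUP98 portion were replaced by alanine, and in G-NHX9-21FGAA, 21 FG pairs were replaced by AA. G-NHX9-midi had a shortened NUP98 portion, G-NHX9-midi-21FGAA combined the shortening with the 21 replacements, and G-NHX9-DDNA had a homeodomain changed to bind DNA more weakly. The labels give no treatment in any group, and an age of 8 weeks for the donor mice of 32 libraries, 9 weeks for Empty replicate 4, 10 weeks for Empty replicate 5 and 11 weeks for G-NHX9 replicate 1. Empty cells were sorted for mCherry, whereas cells with a construct were sorted for mCherry and green fluorescence, so that the sort and the construct cannot be told apart in a comparison with Empty. All 6 comparisons with Empty share the same 5 Empty libraries. The labels do not say whether libraries of a group came from separate animals, so p-values measure the spread between these libraries. The study's methods describe fewer transductions with each virus than the 5 libraries of a group. The 5 may therefore not all be independent transductions.

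Library totals ran from 31559914 to 75810659 counts. At this depth 3 counts correspond to between 0.0396 and 0.0951 parts per 1e+06 reads of the unscaled library total. The 41 genes took from 0.125% to 0.299% of a library's counts. CPM below is a gene's share of the TMM-scaled library total, in parts per 1e+06 reads. Libraries of the same group always differed by more than sampling noise: over 70 pairs, chi-square divided by its degrees of freedom was never below 22.5. Of the markers of the labelled cells, Kit ranged from 45.2 to 216 CPM and Cd34 from 36.9 to 220 CPM over the means of the 7 groups. The T cell gene Cd3e, 1 of 6 lymphoid genes listed, stayed below 1 CPM in every library. The summed level of the 6 had a mean of 330.9 CPM in Empty and of 98.45 to 240.7 CPM in the constructs. Empty replicate 1 had the highest summed level of the 41 genes among the 5 Empty libraries, and the counts of called genes are therefore also given without it. That choice rests on the measured levels, and leaving out the highest Empty library by itself lowers the Empty mean.

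Replication starts when the origin recognition complex binds DNA and, with Cdc6 and Cdt1, loads the ring-shaped MCM2-7 helicase onto it. Cdc45 and the GINS complex then turn the loaded ring into an active helicase, and polymerases alpha, delta and epsilon copy the strands it opens, with the PCNA clamp holding polymerases on DNA. Many of these genes are known to be transcribed late in G1 under E2F transcription factors, and bone marrow progenitors that divide quickly in culture express them strongly.

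RefSeq promoter windows on GRCm38.p6, from 250 bases before to 50 after the transcription start, were matched for 33 of the 41 genes. An 8-base E2F site (TTTCCCGC, TTTCGCGC, TTTGCCGC or TTTGGCGC, either strand) was present for 15 of the 33 (45.5%), against 704 of the 27025 genes with a window (2.6%). The CCAAT box stood in 63.6% of the matched genes and 41.1% of all, and the CHR letters TTTGAA in 15.2% and 20.2%. The following windows are shown as examples of genes that rose with a site (Orc1, Cdc6, Mcm5 and Mcm6), of one that rose in all 6 comparisons with Empty without a site (Cdc45) and of one that passed in none and had no site (Orc5). Capitals mark E2F sites on either strand, and each window is written 5′ to 3′ on the strand of its gene.
Orc1, chr4:108579204-108579503, plus strand: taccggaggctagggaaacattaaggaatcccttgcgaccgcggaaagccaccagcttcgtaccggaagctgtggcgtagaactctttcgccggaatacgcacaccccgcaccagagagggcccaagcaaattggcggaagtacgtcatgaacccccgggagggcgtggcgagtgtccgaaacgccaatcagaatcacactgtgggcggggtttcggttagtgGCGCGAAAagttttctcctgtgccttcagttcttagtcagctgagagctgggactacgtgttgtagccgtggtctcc
Cdc6, chr11:98907901-98908200, plus strand: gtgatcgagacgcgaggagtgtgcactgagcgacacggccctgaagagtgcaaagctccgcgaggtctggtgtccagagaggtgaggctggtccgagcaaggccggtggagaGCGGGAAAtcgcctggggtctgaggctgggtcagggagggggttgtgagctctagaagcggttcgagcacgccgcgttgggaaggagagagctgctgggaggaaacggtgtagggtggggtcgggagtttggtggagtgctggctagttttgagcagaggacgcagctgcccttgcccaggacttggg
Mcm5, chr8:75109259-75109558, plus strand: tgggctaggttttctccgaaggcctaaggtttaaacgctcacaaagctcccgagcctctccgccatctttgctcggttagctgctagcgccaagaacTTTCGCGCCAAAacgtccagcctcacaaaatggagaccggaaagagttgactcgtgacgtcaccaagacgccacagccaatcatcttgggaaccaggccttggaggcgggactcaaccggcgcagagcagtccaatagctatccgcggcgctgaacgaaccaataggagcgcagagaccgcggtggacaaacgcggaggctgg
Mcm6, chr1:128359656-128359955, minus strand: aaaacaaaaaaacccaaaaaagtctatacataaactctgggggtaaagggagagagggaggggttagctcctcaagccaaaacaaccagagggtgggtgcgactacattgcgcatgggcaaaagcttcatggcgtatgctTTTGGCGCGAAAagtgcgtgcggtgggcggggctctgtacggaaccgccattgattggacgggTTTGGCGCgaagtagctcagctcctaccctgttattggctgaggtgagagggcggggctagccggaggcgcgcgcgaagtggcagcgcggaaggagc
Cdc45, chr16:18811923-18812222, minus strand: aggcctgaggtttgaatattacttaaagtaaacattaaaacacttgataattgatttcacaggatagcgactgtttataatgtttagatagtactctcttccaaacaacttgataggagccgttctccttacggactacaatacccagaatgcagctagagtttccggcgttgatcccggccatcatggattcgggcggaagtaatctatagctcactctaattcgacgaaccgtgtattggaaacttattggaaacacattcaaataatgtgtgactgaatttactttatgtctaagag
Orc5, chr5:22550289-22550588, minus strand: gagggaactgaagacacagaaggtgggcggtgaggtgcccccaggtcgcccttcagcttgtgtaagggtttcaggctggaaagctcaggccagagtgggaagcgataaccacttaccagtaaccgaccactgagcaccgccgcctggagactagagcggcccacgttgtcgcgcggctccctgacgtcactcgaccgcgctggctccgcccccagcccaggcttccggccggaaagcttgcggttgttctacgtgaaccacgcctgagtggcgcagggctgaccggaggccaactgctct
The Orc1 site began 27 bases before the start and the Cdc6 site 138 bases before it. Mcm5 had a pair of sites that overlap and run in opposite directions, beginning 153 and 149 bases before the start. Mcm6 had an overlapping pair of the same kind at 110 and 106 bases and one more site at 47 bases. The Cdc45 and Orc5 windows held none of the 4 sequences. Genes that rose in all 6 comparisons with Empty were found on both sides, Cdc6 and Gins3 with a site and Mcm2, Cdc45, Rfc4, Prim1 and Pold2 without. Sites were not limited to genes that rose: Orc3 and Pold3, which passed the test in no comparison with Empty, held one each.

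The number of replication genes that rose against Empty differed between constructs, from most of the list in 4 of them to 9 genes in G-NHX9-8FA. Summed over the 41 genes, the level in the 5 Empty libraries was 1956, 1390, 1629, 1395 and 1533 CPM, with a mean of 1581 ± 233 (SD, n = 5). In G-NHX9 it was 2123, 2367, 2197, 2066 and 2458 CPM (2242 ± 165), so that each G-NHX9 library lay above the highest Empty library. The same held for G-NHX9-21FGAA (2063 to 2707 CPM, mean 2369 ± 281), G-NHX9-midi-21FGAA (2190 to 2412 CPM, 2311 ± 90.4) and G-NHX9-DDNA (1967 to 2762 CPM, 2405 ± 323). The 5 libraries of G-NHX9-8FA (1576 to 2162 CPM, 1813 ± 227) and of G-NHX9-midi (1665 to 2417 CPM, 1971 ± 287) overlapped with those of Empty. In RNA from whole cultures, a smaller share of cycling cells and less of each RNA per cell cannot be told apart.

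**Figure D1:**
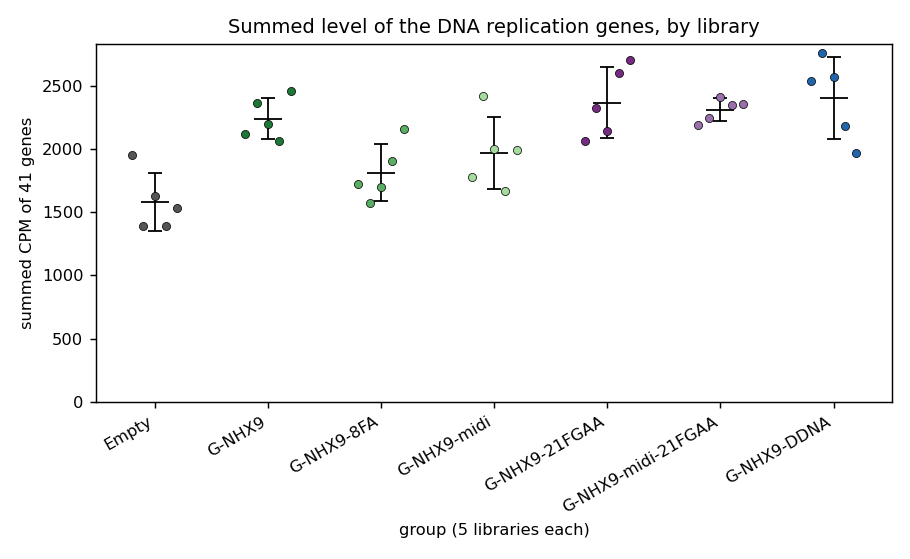
Summed CPM of the 41 DNA replication genes (y axis) in each library of the 7 groups (x axis). Points are libraries, horizontal lines the group mean and bars 1 SD over 5 libraries; the means run from 1581 CPM in Empty to 2405 CPM in G-NHX9-DDNA, and the points of G-NHX9-8FA and G-NHX9-midi overlap those of Empty.

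In G-NHX9, 33 of the 41 genes rose and none fell (edgeR quasi-likelihood test, adjusted p under 0.05), against 16.8% of all genes tested that rose and 15.2% that fell, and the median log2 fold change of the 41 was 0.52. G-NHX9-21FGAA likewise had 33 genes that rose (background 14.6% higher and 12.5% lower, median log2 0.61). G-NHX9-DDNA also had 33 (background 9.85% higher and 7.36% lower, median log2 0.59), and G-NHX9-midi-21FGAA had 31 (background 9.54% higher and 7.3% lower, median log2 0.59). These shares of the 41 genes, 75.6% to 80.5%, were well above the shares of all genes. G-NHX9-midi had 20 genes that rose (background 20.5% higher and 20% lower, median log2 0.33). G-NHX9-8FA had 9, or 22% of the list against a background of 13.3% higher and 13.2% lower, with a median log2 of 0.20. No member fell by this test in any of the 6 comparisons, and the median over all tested genes lay between -0.02 and 0.03 on the log2 scale in each. DESeq2 called Orc5 in G-NHX9-8FA and Rfc2 in G-NHX9-midi, whose log2 differences in the edgeR fit were -0.16 and -0.18. With a filter on a mean of at least 1 CPM, Rfc2 was also called in G-NHX9-midi. When 1 library was left out, at most 1 member was called lower in G-NHX9-midi. Without Empty replicate 1, left out for its high level, the counts were 34 for G-NHX9, 12 for G-NHX9-8FA, 29 for G-NHX9-midi, 35 for G-NHX9-21FGAA, 32 for G-NHX9-midi-21FGAA and 35 for G-NHX9-DDNA. Without Empty replicate 2 they were lower, at 25 for G-NHX9, 31 for G-NHX9-21FGAA, 29 for G-NHX9-midi-21FGAA and 31 for G-NHX9-DDNA.

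The 2 smaller counts changed when single libraries were left out and when only donors labelled 8 weeks old were kept. All G-NHX9-8FA and G-NHX9-midi libraries carry that age, so the restriction took only Empty libraries from these comparisons. Donor age and the loss of these Empty libraries cannot be told apart. With only libraries from donors labelled 8 weeks old, which leaves out Empty replicates 4 and 5 and G-NHX9 replicate 1, the count was 2 for G-NHX9-8FA and 9 for G-NHX9-midi (8 higher and, for Rfc2, 1 lower), an alternative chosen after seeing the data. For G-NHX9-8FA the count was 5 without Empty replicate 2 or Empty replicate 5, 3 without Empty replicate 4, 4 without G-NHX9-8FA replicate 4 and 3 without G-NHX9-8FA replicate 5. For G-NHX9-midi it was 13 without G-NHX9-midi replicate 2, the highest library of that group.

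**Figure D2:**
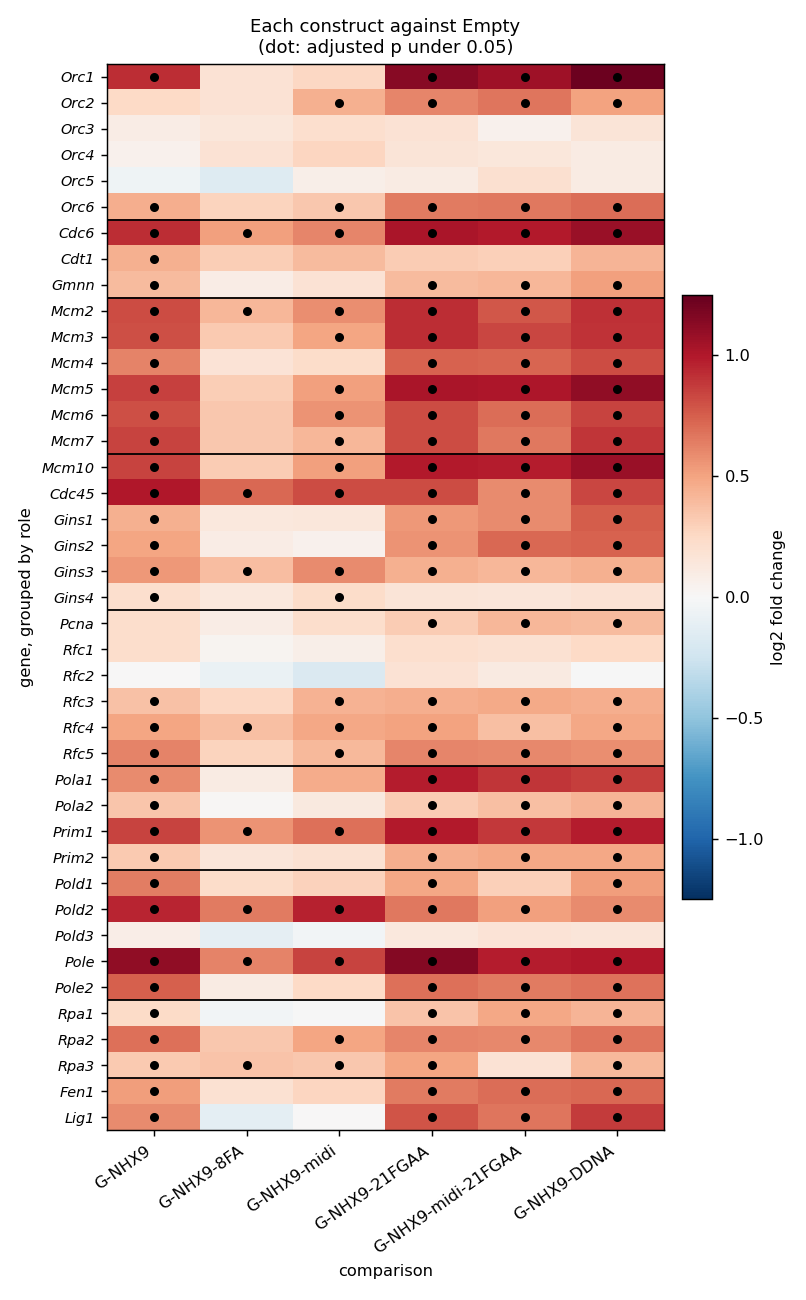
Log2 fold change (colour) of the 41 genes (rows, ordered by role, with lines between roles) in each construct against Empty (columns), with a dot where edgeR's adjusted p is under 0.05. Dots fill most rows for G-NHX9, G-NHX9-21FGAA, G-NHX9-midi-21FGAA and G-NHX9-DDNA, with 31 to 33 dots a column, and are fewer for G-NHX9-8FA (9) and G-NHX9-midi (20).

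Within the origin recognition complex, Orc1, Orc2 and Orc6 moved and Orc3, Orc4 and Orc5 did not pass the test in any comparison with Empty. Orc1 encodes the largest ATPase subunit, whose level in many cell types changes over the cell cycle, and per kilobase of exon it was the least abundant of the 41 genes in Empty (1.2 RPKM). Its level in Empty was 5.35, 3.44, 4.14, 3.49 and 4.41 CPM, and in G-NHX9 5.73, 7.70, 6.03, 8.46 and 11.7 CPM. It was 9.76, 11.0, 11.3, 8.54 and 8.09 CPM in G-NHX9-DDNA. Both of these groups lay wholly above Empty, with the closest G-NHX9 library only a little above the highest Empty library. Orc1 rose in G-NHX9 (log2 0.93, SE 0.22, adjusted p = 0.0012, edgeR) and most in G-NHX9-DDNA (log2 1.22, SE 0.22, adjusted p = 0.00053, edgeR), and also in G-NHX9-21FGAA (log2 1.14) and G-NHX9-midi-21FGAA (log2 1.06). In G-NHX9-8FA its log2 difference from Empty was 0.18 and in G-NHX9-midi 0.26, and neither passed the test. Orc5, by contrast, stayed between 14.9 and 22.2 CPM in all 35 libraries, with log2 differences from Empty between -0.16 and 0.20. Reads of Orc5 may be hard to assign in part, since 2 annotated genes lie within it on the same strand.

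Cdc6, the ATPase that loads the helicase with the origin recognition complex, was higher than in Empty in all 6 comparisons. Its CPM was 21.5, 13.2, 15.8, 13.6 and 13.9 in Empty, 26.9, 32.4, 28.1, 26.0 and 34.3 in G-NHX9, and 35.2, 40.1, 36.4, 26.1 and 26.5 in G-NHX9-DDNA. In both constructs the lowest library exceeded the highest Empty library, whereas in G-NHX9-8FA (17.4 to 31.0 CPM) and G-NHX9-midi (16.7 to 31.5 CPM) the groups overlapped. The log2 fold change was 0.92 (SE 0.17) in G-NHX9, 1.08 (SE 0.17) in G-NHX9-DDNA, 0.51 (SE 0.17) in G-NHX9-8FA and 0.61 (SE 0.17) in G-NHX9-midi. Cdt1, the partner of Cdc6 in loading, moved less. It was 23.1, 22.3, 28.3, 29.9 and 31.7 CPM in Empty and 28.2, 34.9, 38.5, 37.1 and 44.8 CPM in G-NHX9, with overlapping ranges. It passed the test in G-NHX9 alone (log2 0.44, SE 0.16, adjusted p = 0.037, edgeR), and its log2 differences in the other 5 constructs, 0.30 to 0.43, were of similar size. With the replicate number as a block, Cdt1 also passed in G-NHX9-midi-21FGAA (log2 0.29, adjusted p = 0.026, edgeR) and G-NHX9-DDNA (log2 0.43, adjusted p = 0.0021, edgeR), groups whose replicates deviated together with those of Empty. One annotated gene, Gm20388, overlaps Cdt1 on the same strand. Gmnn encodes geminin, which binds Cdt1 and keeps origins from being licensed again. It rose in the same 4 constructs as Orc1, by log2 0.40 (SE 0.11) in G-NHX9 to 0.51 (SE 0.11) in G-NHX9-DDNA, and differed from Empty by log2 0.09 in G-NHX9-8FA and 0.18 in G-NHX9-midi, without passing.

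The 6 subunits of the MCM2-7 helicase moved together. All 6 rose in G-NHX9, G-NHX9-21FGAA, G-NHX9-midi-21FGAA and G-NHX9-DDNA, with median log2 fold changes of 0.81, 0.87, 0.75 and 0.89. In G-NHX9-midi 5 rose (median log2 0.50), and in G-NHX9-8FA only Mcm2 did (median log2 0.33). Mcm5 was 88.1, 48.3, 61.7, 53.2 and 54.8 CPM in Empty and 99.3, 120, 108, 97.4 and 128 CPM in G-NHX9. In G-NHX9-DDNA it was 144, 167, 149, 113 and 87.3 CPM, where replicate 5 alone fell within the Empty range. Mcm5 rose by log2 0.85 (SE 0.18, adjusted p = 0.00039, edgeR) in G-NHX9 and by log2 1.11 (SE 0.18, adjusted p = 0.00041, edgeR) in G-NHX9-DDNA. Mcm2 was 70.9, 46.3, 56.2, 50 and 53 CPM in Empty, 84.3, 101, 94.1, 90.6 and 117 CPM in G-NHX9, and 67.0, 59.2, 65.7, 76.8 and 99.7 CPM in G-NHX9-8FA. The G-NHX9 libraries were all above Empty, and 2 of the 5 G-NHX9-8FA libraries were. Its log2 fold change was 0.82 (SE 0.15) in G-NHX9, 0.59 (SE 0.15) in G-NHX9-midi and 0.41 (SE 0.15, adjusted p = 0.039, edgeR) in G-NHX9-8FA. Mcm6, with the overlapping pair of E2F sites shown above, was the most abundant subunit per kilobase of exon in Empty (24.9 RPKM) and Mcm2 the least (7.95 RPKM). Summed over the 6 subunits, the level was 430.4 ± 82.1 CPM in Empty, 746 ± 84.9 in G-NHX9, 537 ± 114 in G-NHX9-8FA and 806.2 ± 124 in G-NHX9-DDNA (SD, n = 5). The Mcm7 locus also holds 3 microRNA genes on its own strand and overlaps Ap4m1 and Cops6 on the other.

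Among the partners that activate the helicase, Cdc45 rose in all 6 comparisons and the GINS subunits differed among themselves. Cdc45 was 29.2, 15.9, 23.8, 19.4 and 21.5 CPM in Empty and 38.4, 46.0, 41.9, 46.6 and 46.3 CPM in G-NHX9, without overlap. In G-NHX9-8FA it was 28.2, 31.6, 29.7, 41.9 and 49.5 CPM, with 1 library inside the Empty range. The log2 fold change was 1.00 (SE 0.17) in G-NHX9, 0.82 (SE 0.16) in G-NHX9-midi and 0.72 (SE 0.16, adjusted p = 0.0012, edgeR) in G-NHX9-8FA, where it was the member that rose most. Gins3 rose in all 6 comparisons as well (log2 0.39 to 0.59), and Mcm10, which joins helicase activation to polymerase alpha, in 5, with log2 0.31 in G-NHX9-8FA that did not pass. Gins1 and Gins2 rose in the 4 constructs with large counts and lay close to Empty in G-NHX9-8FA and G-NHX9-midi. Gins2 was 14.1, 8.17, 10.4, 9.49 and 11.9 CPM in Empty, 9.33, 13.7, 11.2, 9.44 and 12.6 CPM in G-NHX9-midi and 18.1, 16.3, 20.3, 17.9 and 16.6 CPM in G-NHX9-midi-21FGAA. The last of these groups lay above both of the others. Its log2 difference from Empty was 0.06 (SE 0.14) in G-NHX9-midi and 0.72 (SE 0.14, adjusted p = 0.0011, edgeR) in G-NHX9-midi-21FGAA. Gins4 passed in G-NHX9 and G-NHX9-midi, with log2 differences of 0.13 to 0.23 over the 6 comparisons.

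The clamp and its loader had 3 of 6 genes that rose in G-NHX9 (median log2 0.30), 1 in G-NHX9-8FA, 3 in G-NHX9-midi and 4 in each of the other constructs. PCNA, the ring that tethers polymerases to DNA, is encoded by Pcna, the most abundant member per kilobase of exon (68.8 RPKM in Empty, with Mcm6 next at 24.9). Its CPM was 218, 147, 165, 136 and 161 in Empty, 210, 201, 205, 161 and 189 in G-NHX9, and 238, 202, 228, 232 and 206 in G-NHX9-midi-21FGAA. Empty replicate 1 exceeded all G-NHX9 libraries, and the other 4 Empty libraries reached 165 CPM, just above the lowest G-NHX9 library. Pcna rose in G-NHX9-21FGAA (log2 0.32, SE 0.11, adjusted p = 0.031, edgeR), G-NHX9-midi-21FGAA (log2 0.42, SE 0.11) and G-NHX9-DDNA (log2 0.40, SE 0.11). In G-NHX9 its log2 difference was 0.22 (SE 0.11, adjusted p = 0.13, edgeR) and did not pass. It was 0.34 (adjusted p = 0.017, edgeR) without Empty replicate 1, a library left out because its level was high. Of the clamp loader subunits, Rfc4 rose in all 6 comparisons and Rfc3 and Rfc5 in 5. Rfc1 and Rfc2 passed in none, with log2 differences of 0.04 to 0.25 and -0.18 to 0.19.

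Polymerase alpha-primase, which lays the RNA-DNA primers, rose as a whole in the 4 constructs with large counts (4 of 4 genes, median log2 0.47 to 0.72). In G-NHX9-8FA and G-NHX9-midi only Prim1, the catalytic primase subunit, passed. Prim1 was 22.2, 11.5, 16.3, 13 and 14.8 CPM in Empty and 18.6, 18.0, 22.1, 24.6 and 32.1 CPM in G-NHX9-8FA, with overlap through Empty replicate 1. Its log2 fold change was 0.57 (SE 0.18, adjusted p = 0.018, edgeR) in G-NHX9-8FA and 0.69 (SE 0.18, adjusted p = 0.0022, edgeR) in G-NHX9-midi. Pola1, the catalytic polymerase subunit, had log2 0.10 and 0.46 in those constructs, and neither passed.

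Of the replicative polymerases, Pole and Pold2 rose in all 6 comparisons. Pole encodes the catalytic subunit of the leading-strand polymerase epsilon. Its CPM was 26.6, 17, 22.7, 20.9 and 23.9 in Empty, 44.1, 48.6, 43.5, 47.4 and 56.8 in G-NHX9, and 27.7, 27.0, 29.3, 33.1 and 54.1 in G-NHX9-8FA. All 5 libraries of both constructs lay above all Empty libraries, although 4 of the G-NHX9-8FA libraries did so narrowly. The log2 fold change was 1.11 (SE 0.18) in G-NHX9, 1.15 (SE 0.18) in G-NHX9-21FGAA, 0.62 (SE 0.18) in G-NHX9-8FA and 0.85 (SE 0.18) in G-NHX9-midi. Pold2, an accessory subunit of polymerase delta, had another order of levels. It was 13.1, 12.2, 11.5, 11.0 and 9.61 CPM in Empty, 19.4, 25.9, 23.5, 18.9 and 23.6 CPM in G-NHX9, and 19.4, 26.8, 23.5, 17.7 and 24.2 CPM in G-NHX9-midi. The lowest library of any construct, 13.7 CPM in G-NHX9-8FA, was above the highest Empty library. Pold2 rose by log2 0.95 (SE 0.14, adjusted p = 1.7e-06, edgeR) in G-NHX9 and by log2 0.96 (SE 0.14, adjusted p = 8.6e-07, edgeR) in G-NHX9-midi, the lowest adjusted p of a member in any comparison with Empty. In the constructs with 21 replacements and in G-NHX9-DDNA the log2 fold change was smaller, at 0.65, 0.51 and 0.59. Pole2, the second subunit of polymerase epsilon, followed Orc1 in rising in G-NHX9 (log2 0.75, SE 0.14) but not passing in G-NHX9-8FA (log2 0.10) or G-NHX9-midi (log2 0.25). Pold3, another delta subunit, passed in none of the 6. The 6 genes that passed in no comparison with Empty (Orc3, Orc4, Orc5, Rfc1, Rfc2 and Pold3) depended on the processing. Library totals in place of TMM raised the median of all genes by 0.077 to 0.186 on the log2 scale. With these totals, 3 of the 6 were called in G-NHX9, 0 in G-NHX9-8FA, 2 in G-NHX9-midi and 6 in G-NHX9-21FGAA. In G-NHX9-midi-21FGAA and G-NHX9-DDNA 4 each were called. With the replicate number as a block, Rfc1 was called in G-NHX9, G-NHX9-21FGAA and G-NHX9-DDNA. The block also called Orc3 and Orc4 in G-NHX9-midi, and Orc5 and Pold3 in G-NHX9-midi-21FGAA. DESeq2 called Orc5 in G-NHX9-8FA, Rfc2 in G-NHX9-midi, and Orc5 and Pold3 in G-NHX9-midi-21FGAA. RLE scaling called none of the 6.

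RPA, which coats single-stranded DNA, has 3 subunits, and all 3 rose in G-NHX9, G-NHX9-21FGAA and G-NHX9-DDNA. Rpa1, its largest subunit, was 116, 84.1, 99.3, 80.3 and 95.9 CPM in Empty and 130, 131, 144, 134 and 127 CPM in G-NHX9-midi-21FGAA, without overlap (log2 0.49, SE 0.09, adjusted p = 0.00094, edgeR). In G-NHX9-8FA and G-NHX9-midi it stayed at the Empty level, with log2 differences of -0.037 and -0.0042 (SE 0.093 in both). Fen1 and Lig1, the flap nuclease and the ligase that finish Okazaki fragments, showed the same split, with 2 of 2 rising in 4 constructs and none in G-NHX9-8FA or G-NHX9-midi. Lig1 was 32, 18.4, 24.6, 26.8 and 31.2 CPM in Empty, 18.1, 20.6, 22.2, 25.6 and 35.8 CPM in G-NHX9-8FA and 49.8, 55.9, 48.4, 46.0 and 42.6 CPM in G-NHX9-DDNA. The first 2 of these groups overlapped throughout, and G-NHX9-DDNA lay above both. The log2 difference of Lig1 from Empty was -0.12 (SE 0.18) in G-NHX9-8FA, 0.0064 (SE 0.18) in G-NHX9-midi and 0.87 (SE 0.18, adjusted p = 0.0016, edgeR) in G-NHX9-DDNA.

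**Figure D3:**
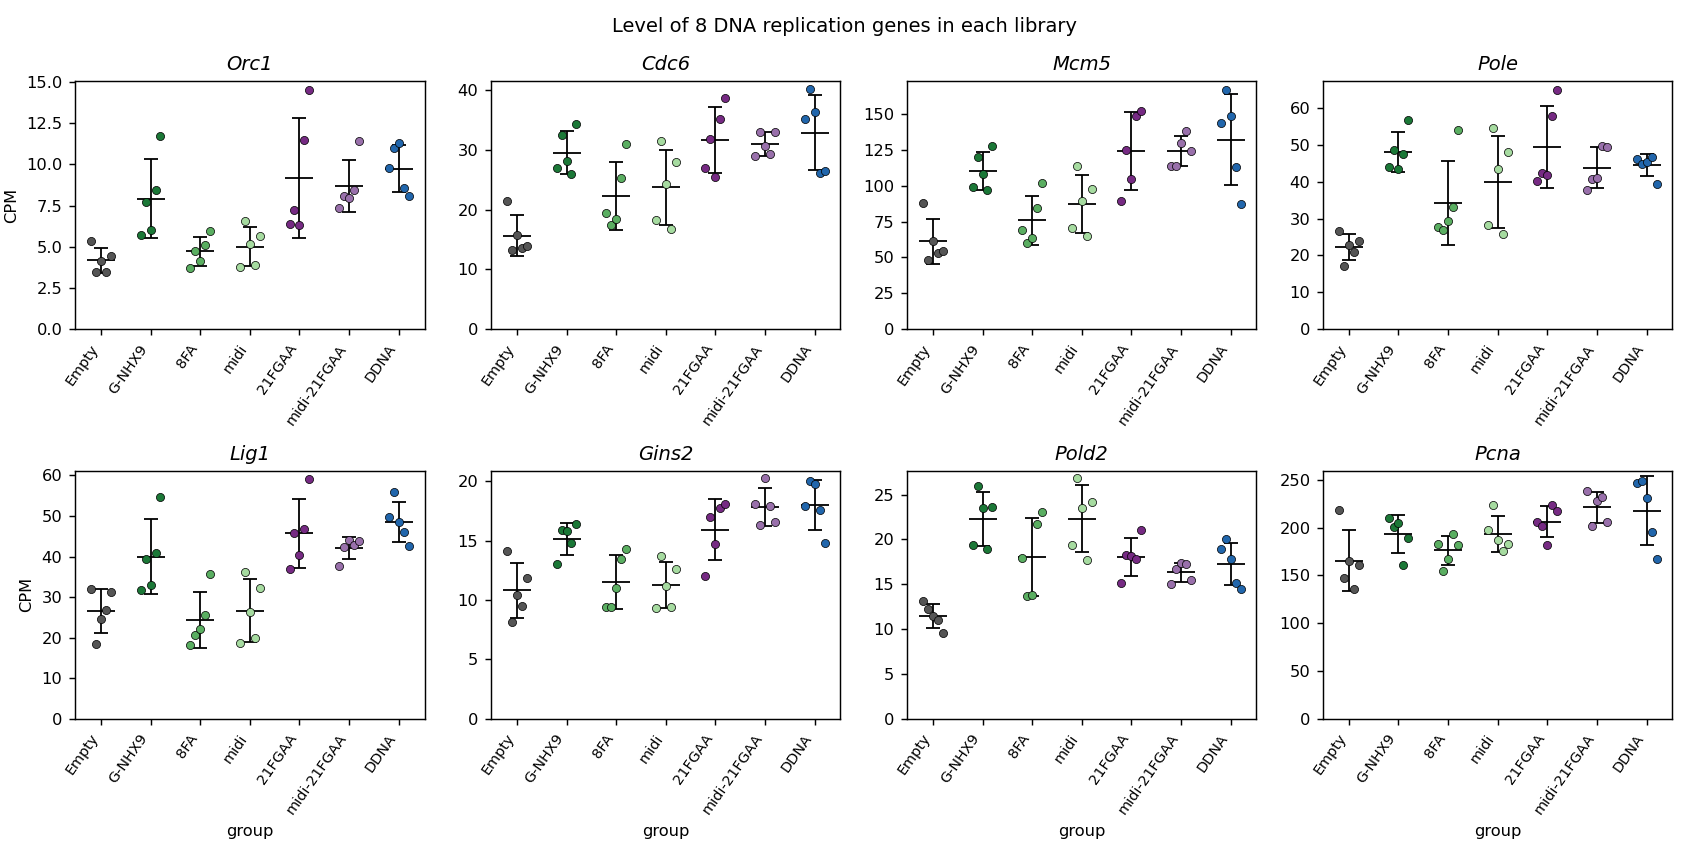
CPM (y axis, starting at 0) of 8 replication genes in each library of the 7 groups (x axis, construct names without their prefix). Points are libraries, horizontal lines the mean and bars 1 SD over 5 libraries; Orc1, Lig1 and Gins2 sit near Empty in 8FA and midi, whereas Pold2 is above Empty in every construct and Pcna overlaps Empty throughout.

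The question of how the altered constructs differ from the unaltered fusion was tested directly. Against G-NHX9, 10 of the 41 genes fell in G-NHX9-8FA and none rose, against a background of 8.07% of all genes that fell and 6.42% that rose, and the median log2 difference was -0.30. These were Orc1, Mcm3 to Mcm7, Pold1, Pole2, Rpa1 and Lig1. Pole2 had the lowest adjusted p. It was 11.3, 13.8, 13.3, 11.3 and 14.2 CPM in G-NHX9 and 7.22, 7.57, 7.51, 9.73 and 8.80 CPM in G-NHX9-8FA, without overlap, and fell by 0.65 on the log2 scale (SE 0.14, adjusted p = 0.0015, edgeR). Lig1 fell by 0.71 on the log2 scale (SE 0.18, adjusted p = 0.0066, edgeR) and Orc1 by 0.75 (SE 0.21). The log2 difference for Cdc6 was -0.41, for Cdc45 -0.28 and for Pcna -0.13, and none of the 3 passed. The count of 10 depended on single libraries. It was 3 without G-NHX9 replicate 2, 2 without G-NHX9 replicate 5, 2 without G-NHX9-8FA replicate 1, 3 without replicate 2 or replicate 3 of G-NHX9-8FA, and 21 without G-NHX9-8FA replicate 5. With library totals in place of TMM scaling it was 26.

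G-NHX9-midi differed from G-NHX9 in 5 genes, all lower (12.2% of the list, close to the background of 11.1% lower; 8.52% of all genes were higher and 19.7% passed in either direction; median log2 -0.19). They were Orc1, Mcm4, Gins2, Pole2 and Lig1, with Orc1 and Lig1 lower by 0.67 and 0.58 on the log2 scale. Pole2 was 7.79, 11.2, 9.49, 7.73 and 8.94 CPM in G-NHX9-midi, below all 5 G-NHX9 libraries, and fell by 0.50 on the log2 scale (SE 0.14, adjusted p = 0.0089, edgeR). Pold2 differed by log2 0.01 (SE 0.13). The count was 3 without replicate 2 or replicate 4 of G-NHX9, 1 without G-NHX9 replicate 5, 1 without replicate 1, 3 or 4 of G-NHX9-midi, and 8 without G-NHX9-midi replicate 2.

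G-NHX9-21FGAA and G-NHX9-DDNA were not told apart from G-NHX9 by any of the 41 genes (edgeR, adjusted p under 0.05), although 17.2% of all genes (8.88% higher, 8.3% lower) and 22% (10.7% higher, 11.3% lower) passed in these comparisons. At an unadjusted p under 0.05, 4 and 3 members were counted, and by DESeq2 0 and 1. The medians over the 41 were log2 0.09 and 0.08, with all single differences between -0.30 and 0.39 for G-NHX9-21FGAA and between -0.36 and 0.31 for G-NHX9-DDNA. In both comparisons replicates of the same number deviated together. With the replicate number as a block, 1 gene passed in each, named here after its value was seen: Orc2 was higher in G-NHX9-21FGAA (log2 0.37, adjusted p = 0.047, edgeR) and Pold2 was lower in G-NHX9-DDNA (log2 -0.36, adjusted p = 0.047, edgeR). Leaving out 1 library changed the first count to 1 (G-NHX9 replicate 5, or replicate 1, 2 or 3 of G-NHX9-21FGAA) and the second to 1 (G-NHX9 replicate 4, or replicate 2 or 4 of G-NHX9-DDNA) or 2 (G-NHX9 replicate 5 or G-NHX9-DDNA replicate 5).

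**Figure D4:**
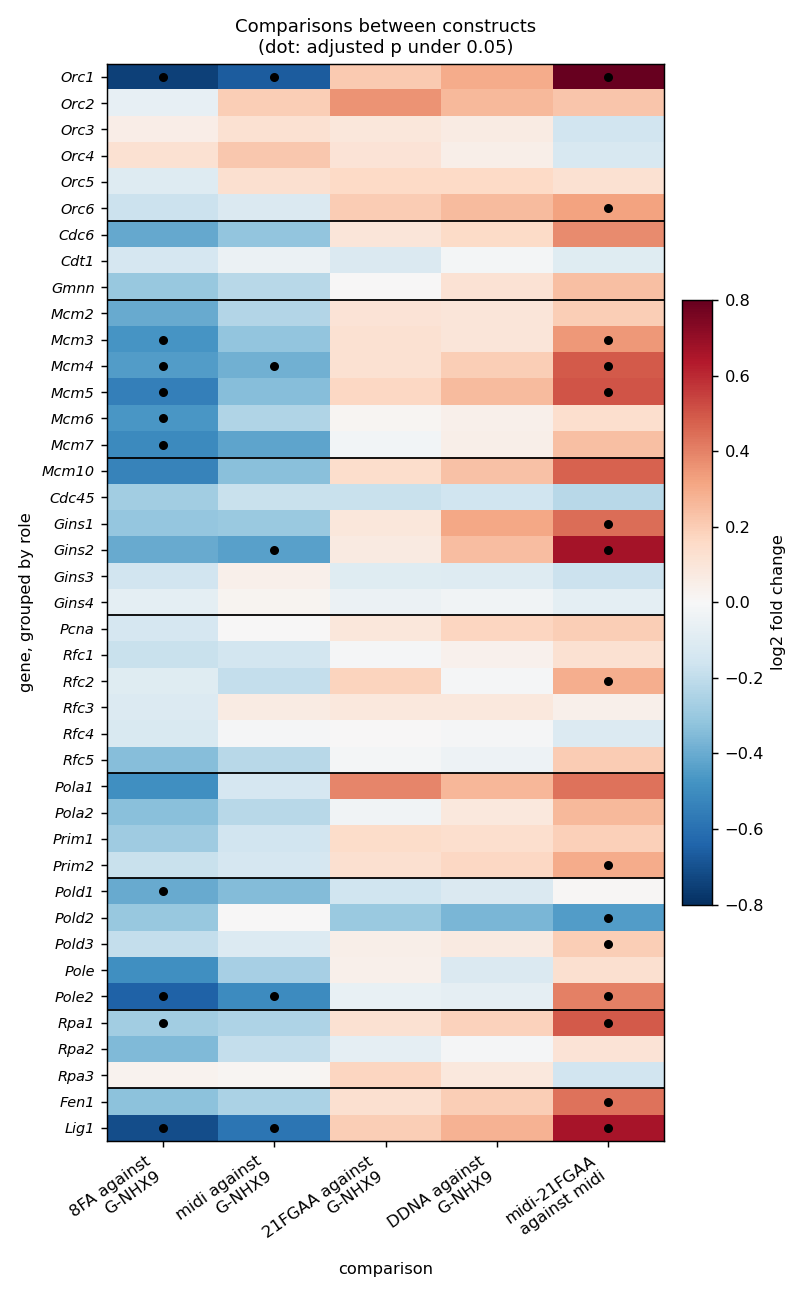
Log2 fold change (colour) of the 41 genes (rows, by role) in 5 comparisons between constructs (columns), with a dot where edgeR's adjusted p is under 0.05. The first 2 columns are mostly negative (10 and 5 dots), the next 2 hold no dot, and the last is mostly positive (15 dots, with Pold2 the only one below 0).

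The 21 replacements were also compared within the shortened construct. Against G-NHX9-midi, 14 of the 41 genes rose in G-NHX9-midi-21FGAA and 1 fell, beside backgrounds of 20.9% higher, 22.2% lower and 43.1% in either direction among all genes tested, with a median log2 of 0.20. The genes that rose came from 8 of the 9 roles and included Orc1, Orc6, Mcm3, Mcm4, Mcm5, Gins1, Gins2, Pole2, Rpa1, Fen1 and Lig1. Rpa1 had the lowest adjusted p. Its CPM was 91.7, 109, 92.5, 88.5 and 92.7 in G-NHX9-midi against 127 to 144 in G-NHX9-midi-21FGAA, without overlap (log2 0.49, SE 0.09, adjusted p = 5.7e-05, edgeR). Gins2 rose by log2 0.66 (SE 0.14, adjusted p = 0.00025, edgeR), Orc1 by log2 0.79 (SE 0.21) and Lig1 by log2 0.66 (SE 0.18). Pold2 was the gene that fell, with 15.0, 16.7, 17.4, 17.2 and 15.5 CPM in G-NHX9-midi-21FGAA, all below the lowest G-NHX9-midi library at 17.7 CPM (log2 -0.45, SE 0.13, adjusted p = 0.0072, edgeR). The count of 15 ran from 10 to 19 when 1 library was left out.

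Whether the 21 replacements acted differently in the full-length and in the shortened construct was tested as a difference of differences. Only Gins2 passed among the 41 genes, with a log2 effect 0.59 larger in the shortened construct (SE 0.20, adjusted p = 0.043, edgeR), against 7.42% of all genes that passed in that direction and 5.18% in the other. This call was lost in 14 of the 20 fits that left out 1 library, with log2 values of 0.49 to 0.68 over all 20; it held without G-NHX9 replicate 1, replicates 4 or 5 of G-NHX9-21FGAA, replicates 2 or 5 of G-NHX9-midi, or G-NHX9-midi-21FGAA replicate 2. The median difference over the 41 genes was log2 0.13. For Orc1 the difference was 0.58 (SE 0.30, adjusted p = 0.22, edgeR), which did not pass.

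Genes with and without an E2F site in the window were compared as a description. Against Empty, the median log2 fold change was 0.64 for the 15 genes with a site and 0.47 for the 18 without in G-NHX9, and 0.84 and 0.55 in G-NHX9-DDNA. It was 0.78 and 0.61 in G-NHX9-21FGAA, 0.66 and 0.55 in G-NHX9-midi-21FGAA, and 0.42 and 0.37 in G-NHX9-midi. In G-NHX9, 13 of the 15 and 13 of the 18 passed. These counts were 12 and 15 in G-NHX9-DDNA and in G-NHX9-21FGAA, 11 and 14 in G-NHX9-midi-21FGAA, and 7 and 11 in G-NHX9-midi. Of all genes tested, 9.54% to 20.5% rose in these comparisons. Between G-NHX9-8FA and G-NHX9 the medians were -0.47 and -0.28. Here 8 of the 15 genes with a site and 1 of the 18 without passed the test, all lower. Of all genes tested, 14.5% passed in this comparison (8.07% lower). The number of replication genes called in it was 10, and ran from 2 to 21 when 1 library was left out. Whether the split by site held in those fits was not tested. Between G-NHX9-8FA and Empty the medians were 0.26 and 0.28, with 2 and 6 passing. The ranges of the classes overlapped in each comparison.

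Other genes of DNA replication, taken as a separate list of 38 (kinases that fire origins, fork protectors, chromatin assembly and methylation factors), was tested in the same fit. In G-NHX9, 25 rose and none fell (median log2 0.46), in G-NHX9-21FGAA 26, in G-NHX9-midi-21FGAA 20 with 1 that fell, and in G-NHX9-DDNA 24. In G-NHX9-midi 14 rose and in G-NHX9-8FA 6. The shares that rose were 65.8% in G-NHX9 (16.8% of all genes), 68.4% in G-NHX9-21FGAA (14.6%), 52.6% in G-NHX9-midi-21FGAA (9.54%) and 63.2% in G-NHX9-DDNA (9.85%). They were 36.8% in G-NHX9-midi (20.5%) and 15.8% in G-NHX9-8FA, close to the 13.3% of all genes. Uhrf1, which recruits the maintenance DNA methyltransferase to new DNA, rose in G-NHX9 (log2 0.95, SE 0.22) and had log2 0.26 (SE 0.22) in G-NHX9-8FA. Dna2, a nuclease of lagging-strand flaps, rose in G-NHX9 by log2 0.94 (SE 0.11, adjusted p = 3.7e-08, edgeR). Recql4, a helicase of origin firing, rose in all 6 constructs (log2 0.48 to 0.76), and Mtbp, another firing factor, by log2 0.65 (SE 0.15) in G-NHX9-midi. Clspn, which carries the checkpoint signal at forks, rose in G-NHX9-21FGAA (log2 0.90, SE 0.20).

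Of 12 genes of nucleotide supply, 8 rose in G-NHX9, 9 in G-NHX9-21FGAA, 8 in G-NHX9-midi-21FGAA, 8 in G-NHX9-DDNA and 3 each in G-NHX9-8FA and G-NHX9-midi. In the first 4 of these constructs 66.7% to 75% of the list rose, beside 9.54% to 16.8% of all genes. In G-NHX9-8FA and G-NHX9-midi 25% rose, beside 13.3% and 20.5% of all genes. Dut, which removes dUTP, was 29.3 ± 5.90 CPM in Empty and 61.7 ± 7.19 CPM in G-NHX9 (SD, n = 5), with log2 1.07 (SE 0.17) in G-NHX9 and 0.75 (SE 0.17) in G-NHX9-8FA. Tyms, the thymidylate synthase, rose by log2 1.04 (SE 0.18) in G-NHX9-21FGAA. Samhd1, which degrades dNTPs, was the only gene of this list that fell, and did so in all 6 comparisons. Its mean was 303 ± 29.8 CPM in Empty and 161 to 207 CPM in the constructs, and its largest decrease was in G-NHX9-midi (log2 -0.92, SE 0.11, adjusted p = 2.3e-08, edgeR).

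Among 20 E2F and G1-S regulators, 7 rose and 1 fell in G-NHX9, 5 and 1 in G-NHX9-8FA, 6 and 4 in G-NHX9-midi, 9 and 0 in G-NHX9-21FGAA, 8 and 0 in G-NHX9-midi-21FGAA, and 10 and 0 in G-NHX9-DDNA. In G-NHX9-midi 30% rose and 20% fell, beside 20.5% and 20% of all genes. In G-NHX9-8FA 25% rose and 5% fell, beside 13.3% and 13.2%. In the other constructs 35% to 50% rose, beside 9.54% to 16.8% of all genes. Mybl2, a transcription factor of late G1 and S phase, rose in all 6 (log2 1.32 in G-NHX9, 0.76 in G-NHX9-8FA). E2f8, a repressor made in S phase, rose in G-NHX9 (log2 1.11, SE 0.31) and G-NHX9-21FGAA (log2 1.07, SE 0.31), and Tfdp2, an E2F partner, in all 6 (log2 0.36 to 0.71). Of 20 mitosis genes, 16 rose in G-NHX9, 19 in G-NHX9-21FGAA, 15 in G-NHX9-midi-21FGAA and 18 in G-NHX9-DDNA, whereas 1 (Cdk1) rose in G-NHX9-midi and none in G-NHX9-8FA. The shares were 75% to 95% in the first 4 of these constructs. They were 5% in G-NHX9-midi and 0% in G-NHX9-8FA, below the 20.5% and 13.3% of all genes. Cdc20, an activator of the anaphase-promoting complex, was 26.8 ± 6.76 CPM in Empty, 53.2 ± 7.57 in G-NHX9, 34.5 ± 12.4 in G-NHX9-8FA and 37.4 ± 13 in G-NHX9-midi. Kif11, a spindle motor, rose by log2 0.82 (SE 0.22) in G-NHX9. Mki67 was 382 ± 111 CPM in Empty and 775 ± 110 CPM in G-NHX9-21FGAA (log2 1.02, SE 0.22), with log2 -0.13 in G-NHX9-8FA and -0.23 in G-NHX9-midi that did not pass.

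**Figure D5:**
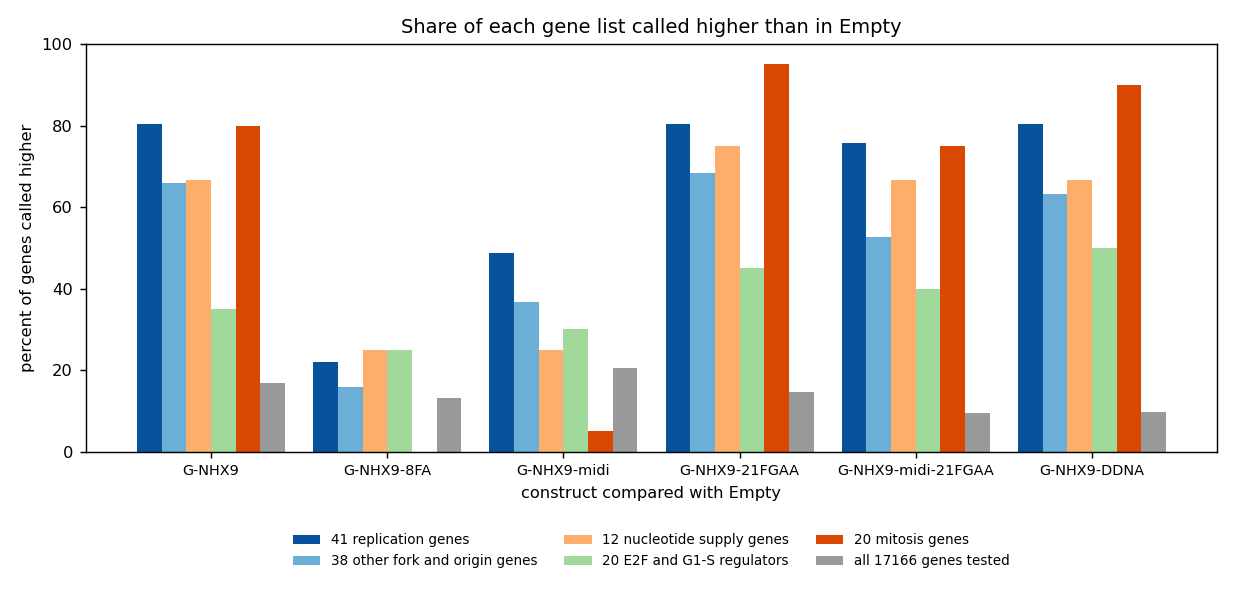
Percent of each list that edgeR called higher than in Empty (y axis) in the 6 constructs (x axis); bars stand for the 41 replication genes, the 4 other lists and all 17166 genes tested. Replication genes exceed the grey background bar in every construct (22% against 13.3% in G-NHX9-8FA), and the mitosis bar is at 0% in G-NHX9-8FA and 5% in G-NHX9-midi.

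Markers of maturing blood cells moved with these groups. The summed level of 13 erythroid genes (of 14 listed), whose precursors divide quickly, was 328.3 to 889.5 CPM in Empty, 303.7 to 788.7 in G-NHX9, 117.3 to 160 in G-NHX9-8FA and 143.8 to 202.8 in G-NHX9-midi. It was 605.4 to 2158 CPM in G-NHX9-21FGAA, 743.5 to 1905 in G-NHX9-midi-21FGAA and 662.6 to 2053 in G-NHX9-DDNA. Of the 13 genes, 12 fell in G-NHX9-8FA, 11 fell in G-NHX9-midi, and 6, 10 and 3 rose in the last 3 constructs. In G-NHX9 none of the 13 passed by edgeR. The summed level of 10 late neutrophil genes, which mark cells that have stopped dividing, was 8979 to 12860 CPM in Empty and 15210 to 33770 CPM in G-NHX9-8FA, where 5 of 10 rose. It was 10200 to 21700 CPM in G-NHX9-midi, with 3 that rose and 3 that fell, and 11550 to 20120 CPM in G-NHX9-DDNA, with 2 that rose and 2 that fell. It was 8458 to 14480 CPM in G-NHX9, 7143 to 13030 in G-NHX9-21FGAA and 5658 to 12640 in G-NHX9-midi-21FGAA, where 3, 2 and 2 genes fell and none rose. Among the constructs, the highest late neutrophil sums came with the lowest replication sums, in G-NHX9-8FA and G-NHX9-midi, and with the highest one, in G-NHX9-DDNA. Empty had the lowest replication sum of all groups (mean 1581 CPM) with a mean late neutrophil sum of 11550 CPM. In G-NHX9 these means were 2242 and 11890 CPM. The summed level of 10 mast cell and basophil genes was 1235 to 3515 CPM in Empty, 584.6 to 874.1 in G-NHX9 and 2640 to 6414 in G-NHX9-midi-21FGAA. Of these, 6, 8 and 9 fell in G-NHX9, G-NHX9-8FA and G-NHX9-midi, and 5, 4 and 1 rose in G-NHX9-21FGAA, G-NHX9-midi-21FGAA and G-NHX9-DDNA. Megakaryocyte genes (7 listed) fell in 3, 7 and 7 cases in G-NHX9, G-NHX9-8FA and G-NHX9-midi and rose in 2 in G-NHX9-21FGAA. Eosinophil genes (7 listed) fell in 3, 6 and 6 cases in the first 3 of these, and 1 rose in each of G-NHX9-midi and G-NHX9-DDNA. Early granule genes (5 listed) rose in 4, 4, 3, 5, 0 and 5 cases in G-NHX9, G-NHX9-8FA, G-NHX9-midi, G-NHX9-21FGAA, G-NHX9-midi-21FGAA and G-NHX9-DDNA. In the same order, macrophage genes (11 listed) fell in 4, 2, 7, 4, 0 and 2 cases and rose in 3, 1, 1, 0, 0 and 0, and stem and progenitor genes (10 listed) rose in 5, 3, 4, 4, 4 and 3 and fell in 1, 1, 2, 0, 0 and 1. Of 6 lymphoid genes, 2 were tested, and 1 fell in each of the first 4 of these constructs. Over all genes tested, 16.8%, 13.3%, 20.5%, 14.6%, 9.54% and 9.85% rose in the same order of constructs. The shares of all genes that fell were 15.2%, 13.2%, 20%, 12.5%, 7.3% and 7.36%. The part of these marker differences in the levels of the replication genes was not tested.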

How the data were processed

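RNA-seq (TruSeq Stranded Total RNA) covered 35 libraries, 5 in each of 7 groups taken from the sample labels. The authors deposited raw counts per gene, and the submitters' processing notes name STAR 2.7.0d, HTSeq 0.11.2, DESeq2 and mm10. The annotation and strand setting of the counting are not given in the sources used here, so reads of members that overlap another gene (21 of 41) may be shared with it.

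From the counts, genes were filtered with filterByExpr (17166 of 49671 kept) and scaled by TMM (factors 0.899 to 1.11). One edgeR 4.0.16 quasi-likelihood fit (glmQLFit, robust, R 4.3.3, limma 3.58.1) held all 7 groups with 28 residual degrees of freedom, and p-values were adjusted by Benjamini-Hochberg over all genes tested with a threshold of 0.05. CPM values are TMM-scaled. Levels were compared between genes only as RPKM over exonic bases of the GENCODE M21 annotation (GRCm38). Sequences are from RefSeq. Figures were drawn with matplotlib 3.10.9 in Python 3.11.15. Totals of 31559914 to 75810659 counts set the counting error, and counting floors cover that error only.

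The members and lists were chosen with earlier results of these data known. Named genes were 8 members with textbook roles, the 2 largest called changes in each direction against Empty, the 2 lowest adjusted p-values in each comparison between constructs, and the 2 largest called changes of each other list in G-NHX9, G-NHX9-midi and G-NHX9-21FGAA. Further genes named in the text (such as Prim1, Gins3, Gins4, Orc5, Rpa3 and Mki67) were chosen after their values were seen.

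Titles number the replicates 1 to 5 in every group. Samples of the same number deviated together (every pair's correlation over 0.1) in 5 of 11 comparisons, with a mean correlation of 0.232 for the same number and -0.057 for other numbers. Alternatives were RLE scaling, library totals, no filter, a mean of at least 1 CPM, the replicate block, a fit to the compared groups alone, a minimum fold of 1.2, DESeq2 1.42.0 and leaving out each library. Restricting to donors labelled 8 weeks old and the unadjusted threshold were added after seeing the data. On simulated data for G-NHX9 against Empty (16808 genes), the test recovered 52 of 100 genes changed 1.5-fold and 83 of 100 changed 2-fold, with 6 false calls. Only these genes were changed, in G-NHX9 alone, and every other gene had the same mean in all groups. In the data 32% of the genes tested passed in this comparison, which alters the adjusted threshold. The simulated shares are therefore not the power of the reported tests.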

Additional observations from a re-analysis of the deposited data

Results flagged for a closer look

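In 7 of 105 groups of 5 libraries, 1 library lay far from the other 4 by Dixon's test, where chance gives about 5.25 (1 in 20). Orc1 was 11.4 CPM in G-NHX9-midi-21FGAA replicate 5 against 7.36 to 8.46 in the others. Cdc45 was 28.2 CPM in G-NHX9-midi-21FGAA replicate 1 (others 33.9 to 35.2), and Lig1 was 37.6 CPM in the same library (others 42.3 to 44.2). Pole was 54.1 CPM in G-NHX9-8FA replicate 5 (others 27.0 to 33.1) and 39.4 CPM in G-NHX9-DDNA replicate 5 (others 44.8 to 46.7). Pole2 was 10.1 CPM in Empty replicate 1 (others 6.54 to 7.56), and Rpa1 was 109 CPM in G-NHX9-midi replicate 2 (others 88.5 to 92.7). The effect of the 21 replacements on Gins2 differed between the shortened and the full-length construct by log2 0.595, by the test of that difference. Gins2 was the only member called, 2.44% of the list beside 7.42% of all genes in that direction. Most of the 20 fits that left out 1 library lost this call.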

How the results depend on the processing

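With RLE scaling all 12 counts of called replication genes stayed within 1.5 times. With library totals in place of TMM, G-NHX9-8FA against G-NHX9 gave 26 genes, G-NHX9-DDNA against G-NHX9 gave 1 and the difference of the 21FGAA effects gave 0. Without a filter, G-NHX9-8FA against Empty gave 4, G-NHX9-midi against G-NHX9 gave 3 and the difference of effects 0. With a mean of at least 1 CPM, G-NHX9-DDNA against G-NHX9 gave 1 and the difference of effects 2. With the replicate block, the counts were 19 for G-NHX9-8FA, 8 for G-NHX9-midi, 1 for G-NHX9-21FGAA and 1 for G-NHX9-DDNA against G-NHX9, and 2 for the difference of effects, and the other 7 counts stayed within 1.5 times. A fit to the compared groups alone gave 3 for G-NHX9-8FA against Empty, 2 for G-NHX9-midi against G-NHX9 and 2 for the difference of effects. With a minimum fold of 1.2, the counts against Empty were 20 for G-NHX9, 2 for G-NHX9-8FA, 9 for G-NHX9-midi, 20 for G-NHX9-midi-21FGAA and 21 for G-NHX9-DDNA, those against G-NHX9 were 2 for G-NHX9-8FA and 0 for G-NHX9-midi, G-NHX9-midi-21FGAA against G-NHX9-midi gave 4 and the difference of effects 0. DESeq2 gave 16 for G-NHX9-8FA against G-NHX9, 1 for G-NHX9-DDNA against G-NHX9 and 2 for the difference of effects. With only donors labelled 8 weeks old, an alternative chosen after seeing the data, G-NHX9-8FA against Empty gave 2, G-NHX9-midi against Empty 9 and G-NHX9-21FGAA against G-NHX9 1, and the log2 difference of Pcna between G-NHX9-8FA and Empty became -0.023. An unadjusted p under 0.05, also added later, gave 17 for G-NHX9-8FA against Empty, 24, 11, 4 and 3 for G-NHX9-8FA, G-NHX9-midi, G-NHX9-21FGAA and G-NHX9-DDNA against G-NHX9, and 4 for the difference of effects. The cause of these shifts was not tested, including in the fits with fewer libraries or a stricter threshold. Leaving out 1 library gave 25 to 34 genes for G-NHX9, 3 to 12 for G-NHX9-8FA, 13 to 29 for G-NHX9-midi, 31 to 35 for G-NHX9-21FGAA, 29 to 32 for G-NHX9-midi-21FGAA and 31 to 35 for G-NHX9-DDNA against Empty. It gave 2 to 21, 1 to 8, 0 to 1 and 0 to 2 for G-NHX9-8FA, G-NHX9-midi, G-NHX9-21FGAA and G-NHX9-DDNA against G-NHX9, 10 to 19 for G-NHX9-midi-21FGAA against G-NHX9-midi and 0 to 2 for the difference of effects. All members had counts well above the floor, and libraries of the same group differed by more than sampling noise.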
